A study of Arabidopsis thaliana with 3 samples.

Results

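The genes described here are the protein-coding genes of Arabidopsis thaliana chromosome 2 whose midpoint lies between 3.2 and 3.7 Mb, an interval at the place where this chromosome is known to carry a copy of the mitochondrial genome. The rule found 104 of the 27444 protein-coding genes of the 5 nuclear chromosomes, and 102 of the 104 have locus tags that begin with AT2G07. The interval was selected on the cover of its genes in the same H2A.W.6 and H2A.W.7 region lists, so that cover is given below as a description and no test was made of it. The material was leaves aged 2 to 3 weeks, 4 g per immunoprecipitation, with nuclei digested for 15 min with micrococcal nuclease, which cuts the DNA between nucleosomes. The 3 libraries, read as 50 bp pairs, were a control, an immunoprecipitation of H2A.W.6 and an immunoprecipitation of H2A.W.7. No replicate, genotype, strain or treatment is given in the labels. Each immunoprecipitation therefore stands on 1 library, and no difference between them has a replicate check. What was deposited is the start and end of each enriched region, with no height or count, so the depth behind a value is unknown, and the measure used for a gene is the percent of its body, from start to end, that lay in regions.

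Mitochondrial DNA is known to enter plant nuclear chromosomes and to be inserted there, and the insertion on chromosome 2 beside the centromere is the best known case in Arabidopsis. The reference assembly is known to hold a shortened form of that insertion. H2A.W histones are the H2A class that plants place in heterochromatin, the compact chromatin of centromere-near DNA and transposons. The C-terminal tail of H2A.W.7 has a motif that ATM, a kinase of the DNA damage response, is known to phosphorylate. Genes of the mitochondrial genome encode subunits of the respiratory chain, ribosomal proteins, tRNAs and factors for cytochrome c assembly. Reads from mitochondrial DNA and from the nuclear copy cannot be told apart in these lists where the sequences are the same.

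The label was checked against the gene table by order and length, which do not use the region lists. Of 66 named mitochondrial genes, 33 of them protein-coding, 21 had a partner of equal length in the interval at a shared offset. These 21 are separate loci with 18 names, since some mitochondrial tRNA names stand at more than 1 locus, and 17 of the anchors were tRNA genes. The 4 protein-coding anchors were AT2G07751 with nad3 at 357 bp, AT2G07675 with rps12 at 378 bp, AT2G07707 with atp8 at 477 bp and AT2G07741 with atp6 at 1158 bp. The 21 anchors lay in 4 collinear stretches, numbered along the chromosome, with 7, 2, 5 and 7 anchors in turn. Stretch 2 thus has the thinnest support, since its 2 anchors are tRNA genes of 73 and 75 bp. Stretch 1 (56.8 kb, 22 members) and stretch 4 (26.7 kb, 13 members) ran in the orientation of the mitochondrial table, and stretch 2 (35.5 kb, 13 members) and stretch 3 (106 kb, 31 members) ran inverted. Placing the other mitochondrial genes between anchors gave a position for 22 of the 32 names of protein-coding ones, inside 14 members and inside pseudogenes. The other 90 members had no mitochondrial protein-coding gene placed in them. From the first to the last aligned gene the copy measured 248 kb of the 500 kb interval and held 86 members. Of the 104 members, 79 lay in the 4 stretches and the label holds for these by position. The other 25 had no collinear position, 7 of them between stretches, 9 before the first aligned gene and 9 after the last, among them ABCC13 and MCM5. This is a match of lengths and order and not of sequence, since no sequence was compared.

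H2A.W.6 regions covered 98 of the 104 members over 50% or more of the body (94.2%), where 29.6% of the 2100 protein-coding genes of the centromeric parts and 3.24% of all 27444 were covered. With H2A.W.7 the count was 79 of 104 (76.0%), against 24.3% and 3.54%. Both of these wider sets include the members. Over the 1996 protein-coding genes of the centromeric parts outside the interval, the shares were 26.2% with H2A.W.6 and 21.6% with H2A.W.7. In the centromeric part of chromosome 2, which runs from 1.4 to 7.3 Mb, H2A.W.6 reached 22.4% of the 544 protein-coding genes outside the interval past the limit and H2A.W.7 reached 18.0%. Because the interval was picked for its cover, nothing is read from these distances. The median member had 100% of its body in H2A.W.6 regions and 79.0% in H2A.W.7 regions, while the median of those 544 genes was 0% with either variant. The middle 50% of members ran from 90.1% to 100% with H2A.W.6 and from 54.7% to 99.1% with H2A.W.7. Full cover of the body was reached by 60 members with H2A.W.6 and by 23 with H2A.W.7. At least 1 covered base was found in 103 members with H2A.W.6 and in 101 with H2A.W.7.

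**Figure D1:**
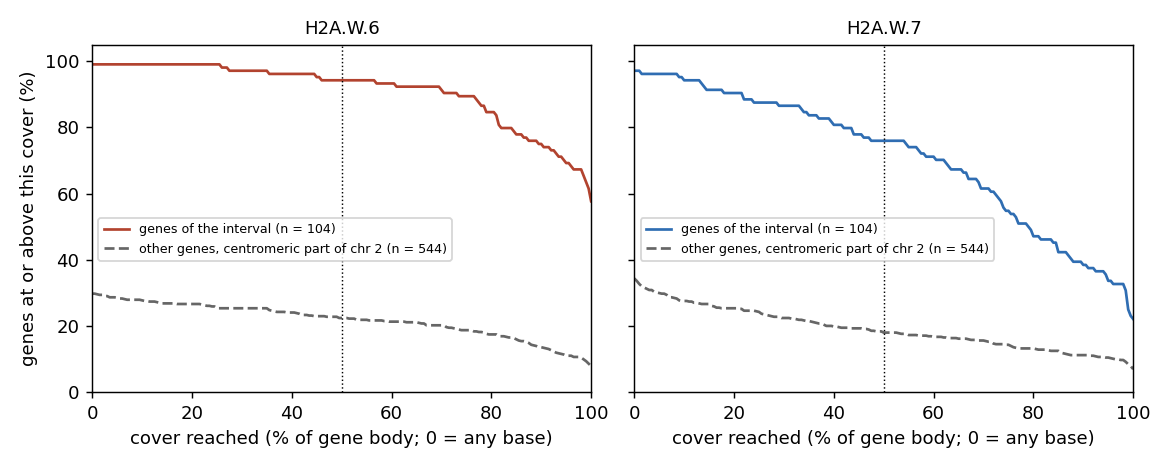
Percent of genes (vertical axis) whose body cover reached at least the percent on the horizontal axis, for H2A.W.6 (left panel) and H2A.W.7 (right panel), 1 library each. Solid lines are the 104 genes of the interval and dashed lines the 544 other protein-coding genes of the centromeric part of chromosome 2, and at the dotted limit of 50% the lines stand at 94.2% against 22.4% and at 76.0% against 18.0%.

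Near the limit of 50%, the members just inside it with H2A.W.6 were ABCC13 (AT2G07680) at 56.8% and AT2G07734 at 60.7%, and those just outside were AT2G07707 at 45.9% and AT2G07739 at 44.8%. With H2A.W.7 the nearest inside were AT2G07714 at 54.4% and AT2G07772 at 54.8%, and the nearest outside were AT2G07656 at 47.3% and AT2G07721 at 45.9%. No member lay between 45.9% and 56.8% with H2A.W.6, or between 47.3% and 54.4% with H2A.W.7. The limit thus fell in a stretch of values without members in both lists.

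Most members had more of their body in H2A.W.6 regions than in H2A.W.7 regions. H2A.W.6 cover was the higher in 75 members, H2A.W.7 cover in 5, and 24 were equal, with a median difference of -12.8 points (H2A.W.7 minus H2A.W.6). Both variants covered 78 members past the limit, H2A.W.6 alone covered 20, H2A.W.7 alone covered 1 and neither covered 5. Protein-coding genes elsewhere gave a mixed order. Among the 544 of the centromeric part of chromosome 2 outside the interval, H2A.W.6 was higher in 92 and H2A.W.7 in 99. Past the limit, H2A.W.6 alone covered 37 of them and H2A.W.7 alone covered 13. Over the 1996 of all centromeric parts outside the interval, H2A.W.6 was higher in 388 and H2A.W.7 in 340. Among all 27444, H2A.W.6 was higher in 691 and H2A.W.7 in 1453. The median difference was 0 in each of these sets, in which most genes were equal (353, 1268 and 25300). Pseudogenes of the centromeric parts outside the interval, the class in which the table holds transposon genes, had the order of the members, with medians of 97.7% and 66.0% over 3448 pseudogenes and a median difference of -19.5 points. The centromeric list of H2A.W.6 holds 14125 regions with a median of 575 bp and that of H2A.W.7 holds 17643 with a median of 430 bp, and the part of these list properties in the difference was not tested.

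Along the chromosome the copy fell into a left side with nearly unbroken H2A.W.6 cover and a right side where both lists were broken. The left side runs from stretch 1 to the end of stretch 2 (108 kb, 38 members). The right side runs from stretch 3 to the end of stretch 4 (136 kb, 47 members). These sides were set after the data were seen. All 38 members of the left side were covered past the limit by both variants, and 37 of them lay wholly in H2A.W.6 regions, the lowest at 99.9%. On the right side H2A.W.6 covered 44 of 47 members and H2A.W.7 covered 25. The count of 25 depended on the treatment of gaps and short regions, at 41 with regions within 1000 bp joined, 8 with regions at or above the median length of their list and 46 with any covered base, and the left side kept 38 under each of these. At 90% of the body H2A.W.7 covered 28 members on the left side and 4 on the right side. Median cover on the left side was 100% with H2A.W.6 and 99.2% with H2A.W.7, and on the right side 91.8% and 56.7%. The lowest H2A.W.7 value on the left side was 54.8%, while values on the right side ran from 0% to 100%, so the sides overlap in range. The difference between variants was -0.78 points at the median on the left side and -31.4 points on the right side. Members of a side share 1 stretch of DNA and often 1 region, and 15 of the 104 overlap another member, so they are not replicates of each other.

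**Figure D2:**
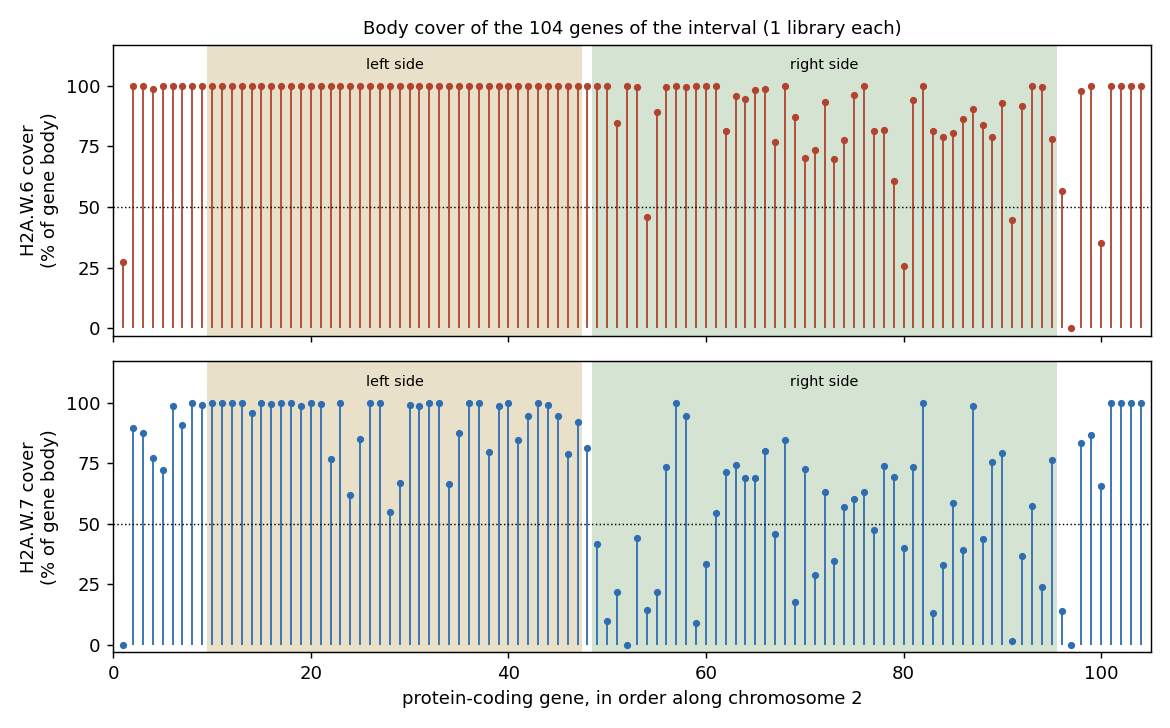
Percent of the gene body in H2A.W.6 regions (upper panel) and H2A.W.7 regions (lower panel) for the 104 genes in their order along chromosome 2, 1 library each, with the limit of 50% dotted. Shading marks the left side (38 genes) and the right side (47 genes) of the mitochondrial copy, and the fall of H2A.W.7 from a median of 99.2% to 56.7% can be seen where the shading changes.

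The median H2A.W.7 cover of members was 99.7% in stretch 1, 94.7% in stretch 2, 56.7% in stretch 3 and 43.6% in stretch 4. H2A.W.6 medians were 100% in stretches 1 and 2, 95.7% in stretch 3 and 84.0% in stretch 4. Over bases, H2A.W.7 held 86.4%, 90.7%, 62.8% and 52.7% of the stretches in turn. Stretch 1 thus exceeded stretch 2 in the member median and not over bases. Exceptions to the high H2A.W.7 cover of the left side were AT2G07772 at 54.8%, AT2G07625 at 62.0%, AT2G07632 at 66.5% and AT2G07628 at 66.8%, all with 100% in H2A.W.6 regions. On the right side full cover by both variants was reached by AT2G07642 and AT2G07830, genes of 42 bp and 123 bp. AT2G07643, at 735 bp, came next with 99.3% and 94.6%, apart from AT2G07661, given below with the genes that had more H2A.W.7.

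Split by gene length, each class held the same order of sides. Because the sides were set after the data were seen, this is a description and not separate support. Among members under 500 bp, median H2A.W.7 cover was 100% for the 9 on the left side and 58.7% for the 14 on the right side. For members of 500 bp to under 1500 bp it was 99.5% over 22 genes and 50.1% over 18, and for members of 1500 bp or more 87.4% over 7 genes and 56.7% over 15. H2A.W.6 medians were 100% in all 3 classes on the left side and 100%, 86.8% and 84.0% on the right side.

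Counted over bases and not genes, H2A.W.6 regions held 99.97% of the left side and 89.0% of the right side, and H2A.W.7 regions 88.4% and 60.8%. H2A.W.6 left 6 gaps on the left side, each of 5 bp, and 129 on the right side with a median of 30 bp and a longest of 625 bp. Per 10 kb this is 0.554 gaps on the left and 9.49 on the right. H2A.W.7 left 84 gaps on the left side with a median of 65 bp and 191 on the right side with a median of 165 bp and a longest of 1555 bp. On the right side 79.8% of the bases outside H2A.W.7 regions were inside H2A.W.6 regions, and 71.8% of the bases outside H2A.W.6 regions were also outside H2A.W.7 regions. The gaps of the right side thus lay in part at the same bases in both lists. This sharing is not particular to the right side. The share of H2A.W.6 gap bases also outside H2A.W.7 was 86.7% over the interval. It was 85.8% in the 200 kb before the interval and 84.7% in the 200 kb after it.

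Protein-coding bodies were the least covered bases of the right side. There H2A.W.7 held 52.6% of the bases in protein-coding bodies, 65.2% of those in other annotated genes and 69.9% of those between genes. H2A.W.6 held 86.1%, 92.4% and 90.4% of the same bases. On the left side H2A.W.7 held 90.5%, 85.1% and 88.6%, with protein-coding bodies the highest of the 3 kinds. H2A.W.6 was above 99.9% in each kind there, at 99.99%, 99.96% and 99.96%.

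**Figure D3:**
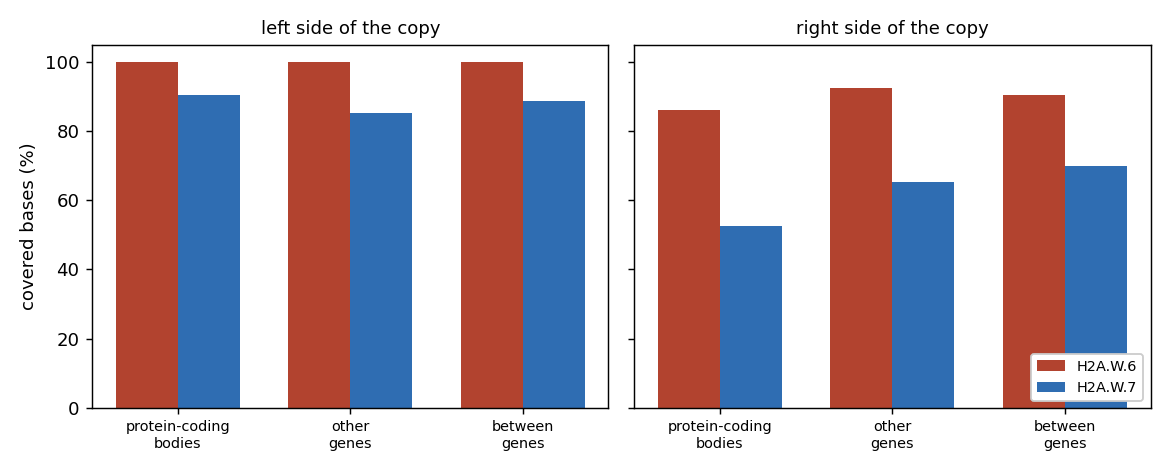
Percent of bases in H2A.W.6 and H2A.W.7 regions (vertical axis, from 0) on the left and right sides of the mitochondrial copy, split into protein-coding bodies, other annotated genes and bases between genes, 1 library each. On the right side the H2A.W.7 bars rise from 52.6% in protein-coding bodies to 69.9% between genes, and on the left side they lie between 85.1% and 90.5%.

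Respiratory chain genes were fully or almost fully covered on the left side of the copy and in part on the right side. For complex I, which takes electrons from NADH, AT2G07751 (nad3) and AT2G07785 (nad1) on the left side were covered over 100% of the body by both variants. The overlapping genes AT2G07787 and AT2G07658 on the right side, both of which hold the placed nad9, had 81.4% and 78.9% in H2A.W.6 regions. Their H2A.W.7 cover was 13.1% and 33.1%. Within the placed nad9 itself H2A.W.6 covered 56.7% of the bases and H2A.W.7 covered 0%. AT2G07727, which holds cob (cytochrome b of complex III), had 69.6% with H2A.W.6 and 34.8% with H2A.W.7, and within the placed cob the cover was higher, at 75.04% and 50.7%. AT2G07687, which holds cox3 (a subunit of cytochrome c oxidase), lay on the left side with 100% and 98.5%.

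ATP synthase genes stood on both sides. AT2G07698 on the left side, with atp1, had 100% with H2A.W.6 and 92.0% with H2A.W.7, and within the placed atp1 H2A.W.7 held 78.2%. AT2G07707 on the right side, the equal of atp8 in length, had 45.9% and 14.5%, below the limit with both. AT2G07741, the equal of atp6 in length, had 78.0% and 76.3%, a difference of -1.73 points. Another mitochondrial gene named atp6, of 1050 bp, was placed in the transcribed pseudogene AT2G07699, which had 99.4% and 74.7%.

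Ribosomal protein genes gave 2 members at or near full cover and 2 broken ones. AT2G07675 (rps12) had 100% with both variants, and AT2G07696 (rps7) had 100% with H2A.W.6 and 94.7% with H2A.W.7, with 100% of the placed rps7 in H2A.W.7 regions. Both lie on the left side. On the right side AT2G07725 (rpl5) had 93.4% and 63.0%, and within the placed rpl5 the cover was 80.3% and 11.5%. AT2G07734 (rps4) had 60.7% with H2A.W.6 and 69.4% with H2A.W.7, and is 1 of the 5 members with more H2A.W.7. Within the placed rps4 the values were 50.0% and 61.0%. AT2G07768, which holds ccmFN2 of the cytochrome c maturation system, lay on the left side with 100% and 100%.

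Over all 14 members with a placed mitochondrial gene, the 7 on the left side had medians of 100% and 100%, and the 7 on the right side 78.0% with H2A.W.6 and 34.8% with H2A.W.7. Members with no placed gene had 100% and 98.97% over 31 genes on the left side and 94.3% and 56.9% over 40 genes on the right side. Over gene bodies, the aligned members of the right side had the lower medians, over 7 genes of which 2 overlap. Over the bases of the placed mitochondrial genes themselves, pseudogenes included, the order with H2A.W.7 was the other way, with 63.6% against 60.1% of all other bases on the right side and 95.7% against 88.0% on the left side. H2A.W.6 held 87.7% against 89.4% on the right side.

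The mitochondrial genes of the right side also lay in transcribed pseudogenes, which the membership rule leaves out. In complex I these were nad7 in AT2G07709 with 92.3% and 71.8%, nad5 in AT2G07711 with 96.5% and 86.9%, nad4 in AT2G07717 with 95.0% and 60.3% and nad2 in AT2G07733 with 95.9% and 73.0%, H2A.W.6 first. AT2G07731, with nad6, had 44.5% with H2A.W.6 and 47.6% with H2A.W.7. The maturase gene matR in AT2G07712 had 92.6% and 64.3%, and mttB, named for membrane transport, had 87.6% and 29.8% in AT2G07716. For cytochrome c maturation, AT2G07723 with ccmFC had 93.6% and 85.4%, and AT2G07783 with ccmFN1, on the left side, had 100% and 94.3%. In every one of these except AT2G07731, H2A.W.6 cover was the higher.

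The largest differences between variants in favour of H2A.W.6 all lay in stretches 3 and 4. AT2G07705, a gene of 201 bp, had 100% with H2A.W.6 and 0% with H2A.W.7. AT2G07644 had 100% and 8.97%, and AT2G07702 had 100% and 9.98%. AT2G07835 had 99.3% and 23.9%, AT2G07652 had 87.2% and 17.7%, AT2G07708 had 89.3% and 21.8%, and AT2G07713 had 100% and 33.6%. The eighth of the group was AT2G07787, given above. The gene table gives these loci no name or function. Short genes can fall wholly into a gap, and the first 3 of the group measure 201, 368 and 561 bp.

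In the other direction differences were smaller. AT2G07800 had 35.2% with H2A.W.6 and 65.8% with H2A.W.7, a difference of 30.6 points, and was the 1 member covered past the limit by H2A.W.7 alone. AT2G07825 had 25.8% and 39.9%, AT2G07661 had 90.3% and 98.8%, and AT2G07815 had 70.2% and 72.8%. Together with AT2G07734 these are all 5 members with more H2A.W.7. The rule of 8 per direction was filled by ties at 100% with both variants, in AT2G07671, AT2G07672 and AT2G07613.

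The 6 members under 50% with H2A.W.6 lay at the margins or on the right side of the copy. AT2G07640, the first member of the interval, had 27.3% with H2A.W.6 and 0% with H2A.W.7. AT2G07739 in stretch 4 had 44.8% and 1.46%. AT2G07707, AT2G07825 and AT2G07800 are given above. MCM5 (AT2G07690), a subunit of the helicase that opens DNA for replication, had 0% with both and was the 1 member with no base in an H2A.W.6 region.

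MCM5 and its neighbour ABCC13, an ABC transporter of the multidrug resistance class, lie after the last aligned gene and interrupt the cover. ABCC13 had 56.8% with H2A.W.6 and 14.0% with H2A.W.7. A run of 5900 bp outside both lists, chr2:3522426-3528325, met both genes, and a second of 3970 bp, chr2:3512916-3516885, met ABCC13. In bins of 10 kb, cover fell to 40.0% with H2A.W.6 and 11.6% with H2A.W.7 at 3.51 Mb and to 17.7% and 13.4% at 3.52 Mb. The longest run outside both lists in the interval, 8230 bp at chr2:3665031-3673260, met no member.

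Before the first aligned gene, each variant covered 8 of 9 members, with medians of 100% and 89.6%. Among them was ABCI5 (AT2G07771), named for subfamily I of the ABC proteins, with 100% and 89.6%. ABCI4 (AT2G07681), of the same subfamily, lies in stretch 1 and had 100% and 84.8%. After the last aligned gene 7 of 9 members were covered by each variant, with medians of 99.7% and 86.8%. The last 3, AT2G07981, AT2G08986 and AT2G09388, had 100% with H2A.W.6 and 99.8%, 100% and 100% with H2A.W.7.

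At the borders of the interval cover did not start or stop. The nearest protein-coding genes outside on the left were AT2G07505 with 49.3% and 0%, HA6 (AT2G07560), a plasma membrane proton pump, with 65.6% and 16.1%, and AT2G07565 with 77.5% and 38.4%. On the right were AT2G09838 with 100% and 100%, AT2G09840 with 98.0% and 49.5%, and AT2G09970 with 0% and 0%. The 200 kb before the interval were covered over 71.9% by H2A.W.6 and 44.5% by H2A.W.7, and the 200 kb after it over 87.3% and 53.6%. The interval itself had 86.4% and 61.4%, so its share with H2A.W.6 was not above that of the 200 kb after it. The whole centromeric part to the left of the interval, its nearest 200 kb included, had 47.1% and 41.7%, and that to the right 52.5% and 42.9%.

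The dense cover had its own limits inside the interval. In bins of 10 kb over the centromeric part of chromosome 2, the longest run with 80% or more H2A.W.6 cover held 29 of 590 bins, from 3.22 to 3.51 Mb. H2A.W.7 ran from 36.6% to 98.5% in these bins, with a median of 77.3%. Bins at 99% or more with H2A.W.6 numbered 29, and 12 of them formed a run of 120 kb that ended at 3.37 Mb and lay over the left side of the copy. H2A.W.7 cover in these 12 bins ran from 72.7% to 98.5% with a median of 88.9%. In bins of 5 kb the longest H2A.W.6 run at 80% or more measured 215 kb and ended at 3.435 Mb. The right end of that run thus depended on the bin width. At 99% or more the run in 5 kb bins measured 125 kb and ended at 3.375 Mb.

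**Figure D4:**
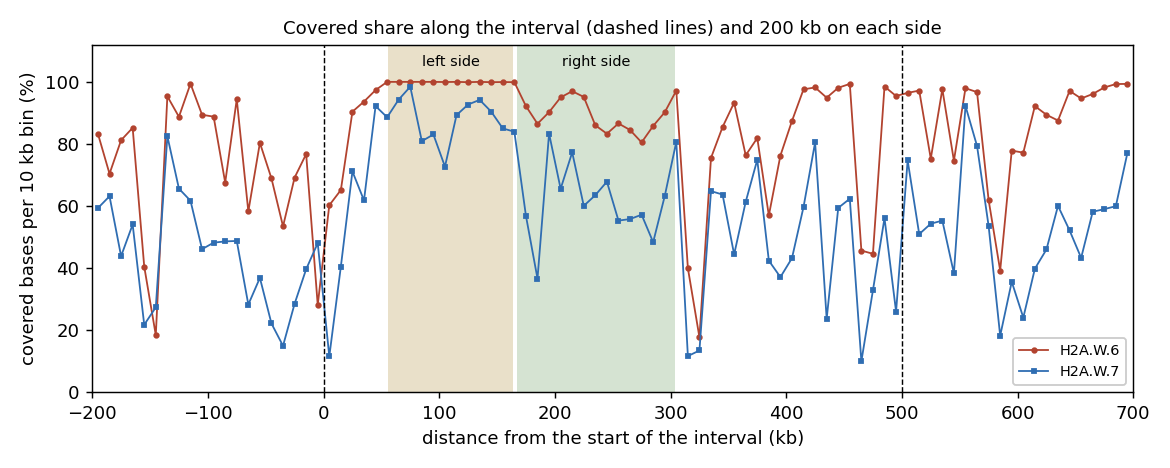
Percent of bases in H2A.W.6 (circles) and H2A.W.7 (squares) regions per 10 kb bin, against distance in kb from the start of the interval, whose ends are the dashed lines, 1 library each. Shading marks the left and right sides of the mitochondrial copy, and H2A.W.6 stays at 99.9% or more over the 12 bins of the run of 120 kb and falls to 17.7% in the bin that holds part of ABCC13 and MCM5.

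The regions behind these values were unequal in length. The interval held 279 H2A.W.6 regions with a median of 745 bp and 458 H2A.W.7 regions with a median of 450 bp. The longest H2A.W.6 regions were chr2:3245646-3302225 (56.58 kb), which held 25 members whole and was covered over 88.2% by H2A.W.7 regions, chr2:3302231-3323560 (21.33 kb) and chr2:3341551-3359710 (18.16 kb). Where H2A.W.6 regions 5 bp apart were joined, 1 block of 123.5 kb resulted, chr2:3245646-3369145, with 44 members whole inside. It was the longest of 11872 such blocks of the centromeric lists, before a block of 33.15 kb on chromosome 4. It remained the longest, at 132 kb, when gaps of up to 50 bp were joined, and ranked 5 of 2610, at 157 kb, with 500 bp. With H2A.W.7 the longest block of the interval joined at 5 bp measured 9.615 kb and ranked 26 of 16119. At 50 bp it measured 10.94 kb and ranked 29 of 13280. At 500 bp it measured 41.135 kb and ranked 4 of 5915.

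The longest H2A.W.7 regions were chr2:3617936-3626555 (8.62 kb), chr2:3256971-3262770 (5.8 kb), which held 4 members whole, and chr2:3323721-3328210 (4.49 kb). The first of these had the same start and end in the H2A.W.6 list. It holds AT2G08986, the longest member at 8403 bp, whole. Of 14125 centromeric H2A.W.6 regions, 24 had identical edges in the H2A.W.7 list, with a median of 415 bp, and this was the only 1 of 3 kb or more.

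Counts for the other gene classes of the interval are given with H2A.W.6 first. H2A.W.6 covered 22 of 23 tRNA genes and H2A.W.7 covered 19, and all 23 lay in the 4 stretches. Of 43 pseudogenes other than transcribed ones, 41 (95.3%) and 28 (65.1%) were covered. Over centromeric pseudogenes outside the interval the shares were 89.4% and 64.2%, but that set also holds transcribed ones. The counts were, of 27 transcribed pseudogenes 26 and 22, of 16 miscellaneous RNA genes 16 and 13, and of 12 long noncoding RNA genes 9 and 10. For the RNA classes, and for transcribed pseudogenes alone, no share outside the interval is given here. Nothing about these classes is read from their counts. Of all bases of the interval, 86.4% lay in H2A.W.6 regions and 61.4% in H2A.W.7 regions. MIR5646, a microRNA gene of 70 bp, had 100% with H2A.W.6 and 0% with H2A.W.7. The median tRNA gene of 75 bp is shorter than the median H2A.W.7 gap of the right side, 165 bp, and the tRNA genes with the widest differences there included AT2G07759 (serine), with 0% and 100%, and AT2G07761 (tyrosine), with 100% and 0%.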

How the data were processed

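The authors deposited 4 lists of region positions (start and end only), an arm list and a centromeric list for each immunoprecipitation. The submitters' processing notes name TAIR10 and bedtools. Not given in the sources used here are the aligner, caller, threshold and scaling to the control. The control itself was left out. Genes came from a RefSeq table of TAIR10.1. Its positions were checked by shifts of up to 10000 bp, and cover of arm pseudogenes peaked at 0 bp on 5 of 5 chromosomes. Gene coordinates and sequences are left out. The members, lists and limit were chosen with earlier results of these data known. A gene counted as covered at 50% or more of its body.

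Anchors were mitochondrial and nuclear genes of equal length whose offsets differed by at most 1500 bp within 60 kb. A mitochondrial protein-coding gene was placed when at least 90% of it fell in a nuclear gene and made up at least 30% of that gene's length, within 35 kb of an anchor. This alignment was chosen after the data were seen. It replaced planned groups by gene name, since 4 members have a symbol. Protein identity was not analysed here. Named by rule were members under 50% with H2A.W.6, the 8 largest differences each way, 3 genes inside and outside each border and the 3 longest regions per list. Members near the limit, with a symbol or placed gene, or singled out on a side of the copy, the pseudogenes, tRNA genes and MIR5646 were named after their values were seen. Calculations used Python 3.11.15, numpy 2.4.6 and pandas 2.3.3 and were tested on simulated lists and gene tables. No test was made between variants, which have 1 library each.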

Additional observations from a re-analysis of the deposited data

How the results depend on the processing

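The alternatives gave 80 values for 14 results, of which 59 were classed as the same, 21 as moved and 0 as reversed in direction. These classes do not follow the size of a change alone. Classed as the same were 98 members covered by H2A.W.6 against 72 without the longest region. So were 79 covered by H2A.W.7 against 60 with regions at or above the median length of their list. A change of the H2A.W.6 share of the interval from 86.4% to 88.2% was classed as moved. The covered share of the interval with H2A.W.6 was 88.2% for an interval 50 kb shorter at each end, 78.8% with regions at or above the median length of their list, 93.3% with regions within 1000 bp joined and 75.1% without the longest region. With H2A.W.7 the same settings gave 65.1%, 48.9%, 79.2% and 59.7%. Joining within 1000 bp took the median H2A.W.7 cover of members to 100% and the median difference between variants to 0.0 points, and the stricter list took that cover to 60.2%. Without its longest region the H2A.W.6 median was 89.8% and 72 members were covered. At 90% of the body 40 members were covered by H2A.W.7. The background share was 22.4% with H2A.W.6 and 18.0% with H2A.W.7 on chromosome 2 outside the interval, and 27.6% with H2A.W.6 without chromosome 2. Settings for the sides of the copy were chosen after seeing the data. On the right side 25 members reached 90% with H2A.W.6 and 4 with H2A.W.7, and on the left side 38 and 28 did. Of the members of the right side, H2A.W.7 covered any base of 46, 8 past the limit with the stricter list and 41 with joining. The low count of the right side thus depends on gaps under 1000 bp. The causes of these shifts, other than the removal or joining of regions itself, were not tested. Depth is unknown, and no statement on weak signal outside regions can be made. No paired analysis was possible because the results come from no test and each group has 1 library.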
